A study of Mus musculus with 39 samples.

Results

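Nodal, Tdgf1, Lefty1, Lefty2 and Smad7, 5 genes of the Nodal pathway among 21728 annotated protein-coding genes, were examined in peak lists from sorted mouse nEnd. The genes were chosen by name, and every listed peak within the gene body plus 20 kb on either side was taken, which gave 181 of the 432096 peaks in 36 lists. H3K4me1 supplied 95 of these peaks, H3K27ac 70, H3K9me3 10 and H3K27me3 6. Smad7 had 58 peaks, Lefty2 42, Lefty1 36, Nodal 25 and Tdgf1 24, and 4 peaks lay in both Lefty windows, which share 4.08 kb.

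The series profiled 4 histone marks by CUT&Tag, in which an antibody guides a transposase to cut DNA around the mark. All cells came from an OCT4-mCherry mouse reporter line grown as nEnd (naive extra-embryonic endoderm, a culture of primitive endoderm character) with no treatment, in a medium that contains Activin A. Cells were sorted for OCT4-mCherry alone (Oct4+), OCT4-mCherry and PDGFRA together (DP) or PDGFRA alone (Pdgfra+), with 3 replicate libraries for each mark and population. The populations were sorted out of a single reporter line, no part of the design varied Activin or Nodal, and the cultures are described as growing on fibroblast feeders. H3K27ac is found at active promoters and enhancers, H3K4me1 at active and primed enhancers, H3K27me3 at Polycomb-repressed genes and H3K9me3 in heterochromatin.

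Nodal is a secreted ligand of the TGF-beta family that patterns the early embryo and acts in the epiblast and the extra-embryonic endoderm around it. It binds activin receptors together with a co-receptor of the Cripto family, here Tdgf1, and signals through SMAD2 and SMAD3, which act on chromatin with SMAD4 and partners such as FOXH1. Lefty1 and Lefty2 are secreted antagonists that the pathway itself induces, and Smad7 is an intracellular inhibitor that blocks the receptors of the wider TGF-beta family. Activin uses the same receptors but does not need the co-receptor.

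The genes lie on GRCm38 (mm10) as follows, with positions from GENCODE vM21. Nodal is at chr10:61417972-61425338 on the plus strand, and its window also takes in part of Eif4ebp2, a translation repressor gene that starts 34.7 kb downstream of the Nodal start. Tdgf1 is at chr9:110939603-110946158 on the minus strand, and Lrrc2 starts 5.39 kb upstream of it on the other strand. Lefty2 is at chr1:180893108-180899103 and Lefty1 at chr1:180935022-180938400, both on the plus strand, with their starts 41.9 kb apart. Tmem63a, an ion channel gene, starts 7.32 kb downstream of the Lefty1 start.

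The sequences that carried the marks are shown for 4 of the genes, each read 5′ to 3′ on the strand of its gene. For each gene, the 300 bases chosen lay at the middle of the longest stretch that was under a peak in the most of the 18 H3K4me1 and H3K27ac libraries, outside exons and more than 1 kb from any annotated start. At Nodal this was the intergenic interval chr10:61416041-61416340, centred 1.78 kb upstream of the start and under a peak in 6 of 6 Oct4+, 3 of 6 DP and 0 of 6 Pdgfra+ libraries. At Tdgf1 it was chr9:110954413-110954712, centred 8.4 kb upstream within an intron of Lrrc2, under a peak in 5 Oct4+, 3 DP and 0 Pdgfra+ libraries. At Lefty2 it was chr1:180888390-180888689, intergenic and centred 4.57 kb upstream (6, 3 and 0 libraries), and at Lefty1 chr1:180925325-180925624, intergenic and centred 9.55 kb upstream (4, 4 and 0 libraries). Capitals mark any match to FOXH1 (AATCCACA), SMAD (CAGAC), the octamer (ATGCAAAT) or TCF/LEF (CTTTGAT) letters on either strand.
Nodal: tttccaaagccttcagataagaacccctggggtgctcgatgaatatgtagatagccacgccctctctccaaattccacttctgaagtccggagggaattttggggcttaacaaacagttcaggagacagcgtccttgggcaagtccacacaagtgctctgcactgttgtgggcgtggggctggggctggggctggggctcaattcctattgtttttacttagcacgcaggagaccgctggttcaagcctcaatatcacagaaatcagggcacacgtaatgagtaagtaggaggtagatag
Tdgf1: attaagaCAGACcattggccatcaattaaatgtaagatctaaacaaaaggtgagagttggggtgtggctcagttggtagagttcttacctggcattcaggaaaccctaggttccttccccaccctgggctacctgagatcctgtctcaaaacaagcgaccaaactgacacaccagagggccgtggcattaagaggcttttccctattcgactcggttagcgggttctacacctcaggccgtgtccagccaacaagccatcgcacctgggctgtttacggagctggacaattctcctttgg
Lefty2: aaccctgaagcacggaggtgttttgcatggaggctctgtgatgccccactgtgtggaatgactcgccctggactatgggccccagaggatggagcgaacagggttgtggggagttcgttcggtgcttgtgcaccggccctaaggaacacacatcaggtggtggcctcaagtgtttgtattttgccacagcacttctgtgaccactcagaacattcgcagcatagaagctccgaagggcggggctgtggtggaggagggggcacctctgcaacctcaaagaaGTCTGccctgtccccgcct
Lefty1: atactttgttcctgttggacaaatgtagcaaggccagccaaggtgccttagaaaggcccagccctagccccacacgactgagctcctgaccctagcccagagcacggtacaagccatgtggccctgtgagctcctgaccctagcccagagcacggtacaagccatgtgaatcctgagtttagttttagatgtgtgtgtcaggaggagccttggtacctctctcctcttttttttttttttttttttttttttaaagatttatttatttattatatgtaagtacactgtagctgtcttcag

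RefSeq promoter sequence of GRCm38.p6 was at hand for Nodal and Tdgf1, whose starts carried H3K27ac in all 3 Oct4+ libraries. The 250 bases before each start, at chr10:61417722-61417971 and chr9:110946159-110946408, are printed with the same capitals.
Nodal promoter: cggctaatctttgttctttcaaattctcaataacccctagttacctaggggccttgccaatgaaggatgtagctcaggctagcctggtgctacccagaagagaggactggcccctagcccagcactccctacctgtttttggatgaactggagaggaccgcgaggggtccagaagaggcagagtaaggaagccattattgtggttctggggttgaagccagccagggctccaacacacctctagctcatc
Tdgf1 promoter: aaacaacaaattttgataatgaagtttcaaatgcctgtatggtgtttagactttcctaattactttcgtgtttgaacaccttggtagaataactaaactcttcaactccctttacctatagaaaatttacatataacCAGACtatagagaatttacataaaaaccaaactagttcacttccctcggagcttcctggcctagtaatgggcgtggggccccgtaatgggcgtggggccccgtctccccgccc

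The SMAD letters occurred 1 time each in the Tdgf1 promoter and in the Tdgf1 and Lefty2 upstream intervals, and no printed sequence held any of the other 3 motifs. These 5 letters are common, since 42.1% of 27025 RefSeq promoters of the same length and 55.3% of 141492 windows of 300 bases at the middles of H3K4me1 and H3K27ac peaks held them. The FOXH1 letters were in 0.751 and 1.17% of the same promoters and windows, the octamer in 1.61 and 1.54%, and TCF/LEF in 3.23 and 4.68%. GC content was 53.2% in the Nodal promoter and 42.0% in the Tdgf1 promoter. It was 51.0, 50.7, 58.0 and 45.3% in the Nodal, Tdgf1, Lefty2 and Lefty1 intervals, against a median of 47.3% in the peak windows.

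Sequencing depth is unknown, because the lists give no read totals, and the lists differed widely in length. They held 1074 to 16057 peaks for H3K4me1, 3079 to 65131 for H3K27ac, 1143 to 8672 for H3K27me3 and 5322 to 29970 for H3K9me3. For H3K27ac the weakest peak in a list had a total signal of 5460 to 28044, so the absence of a peak does not show the absence of the mark. The longest H3K27ac lists were those of Oct4+ replicates 1 and 2, with 38619 and 65131 peaks, and Oct4+ replicate 3 had 8574. Among H3K4me1 lists of Pdgfra+, replicate 3 held 10620 peaks and replicates 1 and 2 held 1723 and 1074. The part of list length in the differences below was not tested beyond the comparisons with equal numbers of peaks.

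Marker genes were checked first. H3K27ac covered more of the window in every Oct4+ than in every Pdgfra+ library at 7 of 8 pluripotency genes, all but Klf4, against 15.9% of all tested genes. It covered less at 4 of 8 primitive endoderm genes (Col4a1, Foxa2, Pdgfra and Sox17), against 0.819% of tested genes. When every list was shortened to the same number of peaks it covered less at 7 of the 8, and the share over all tested genes also rose, to 14.2%. Of 6 trophectoderm genes, Cdx2, Krt8 and Krt18 were covered less in Oct4+. Of 8 fibroblast genes, H3K27ac lay at the promoter of 0 to 12.5% in each Oct4+ and DP library and of 0% in each Pdgfra+ library. Over all protein-coding genes the mean share was 32.5, 26.5 and 19.2% in Oct4+, DP and Pdgfra+.

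The main measure was the percentage of each window under listed peaks, given for every library and as mean ± SD over 3 libraries. The test between the 3 populations was an exact permutation of the F statistic, with all 1680 ways of assigning the 9 libraries enumerated, adjusted by Benjamini-Hochberg over all protein-coding genes with a peak of that mark. No gene of the genome passed an adjusted p of 0.05 for any mark, although the unadjusted exact p fell below 0.05 at 832 of 13283 genes (6.26%) for H3K4me1 and at 1623 of 18676 (8.69%) for H3K27ac, with 713 and 1652 such genes for H3K27me3 and H3K9me3. Values of the 5 genes are therefore given as measured, with both p-values, and with the share of all tested genes whose libraries separate in the same way. With 9 libraries in 3 populations the smallest possible exact p is 0.00357, so a gene could pass only if many others came near it. That none passed does not show that no gene differed. A pair of populations cannot reach an exact p below 0.10 with 3 libraries each. The replicates are numbered samples, and the paper describes its CUT&Tag tracks as drawn from 3 biological replicates. Whether these were separate cultures is not given in the labels, and where they are not, the p-values measure technical spread only.

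**Figure D1:**
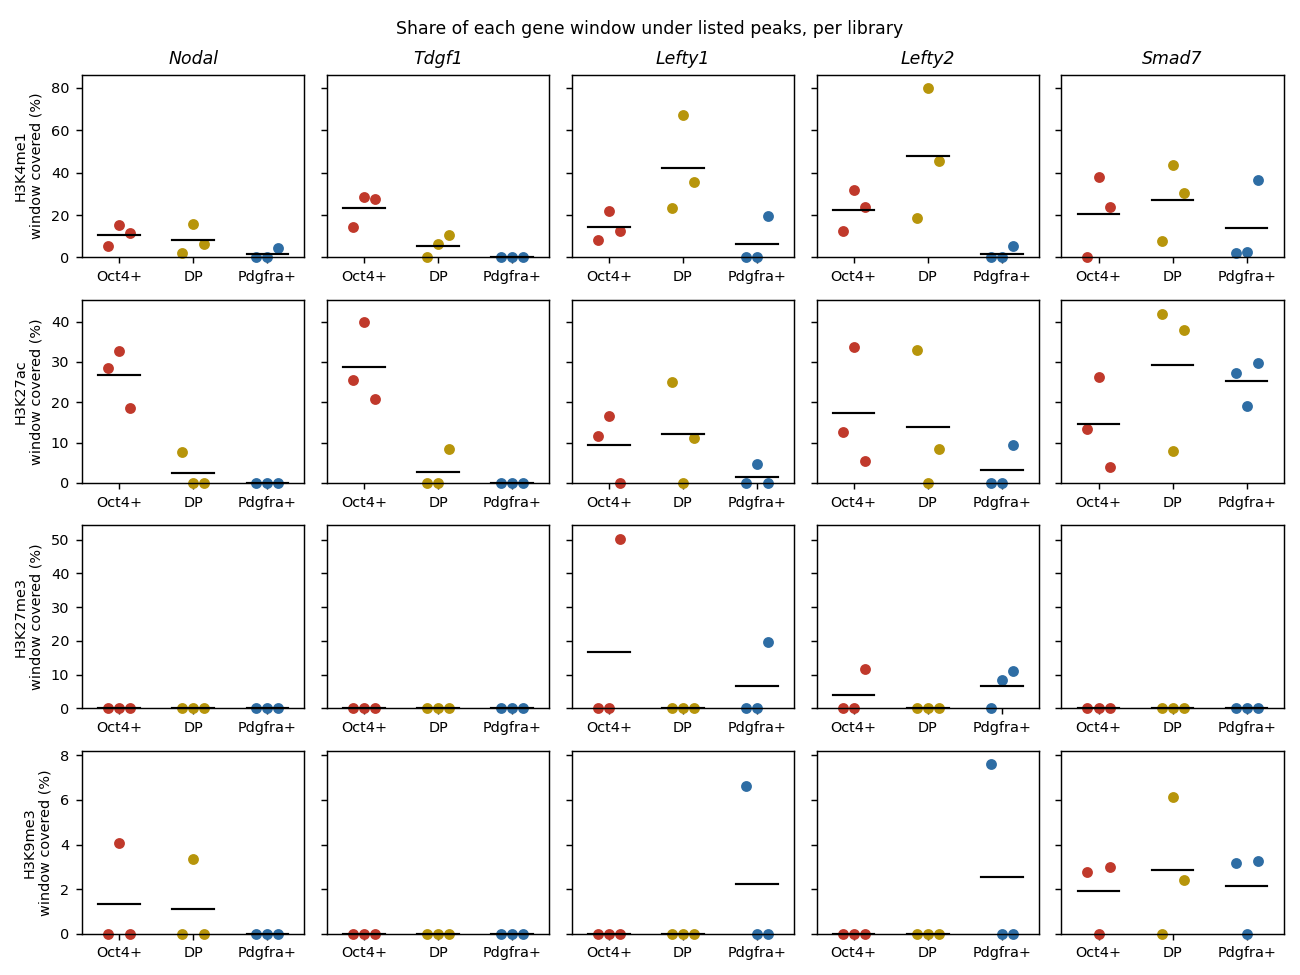
Percentage of each gene window (gene body plus 20 kb either side) under listed peaks, by mark (rows) and gene (columns). Each point is 1 library, in order of replicate number, and the bar is the mean of 3. H3K27ac at Nodal and Tdgf1 lies between 18.6 and 39.8% in Oct4+ and at 0 in every Pdgfra+ library, H3K4me1 at the Lefty genes is highest in DP, and Smad7 holds H3K27ac in all 9 libraries.

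H3K27ac at Nodal, the ligand, was listed in all Oct4+ libraries, in 1 DP library and in no Pdgfra+ library. It covered 28.6, 32.7 and 18.6% of the window in Oct4+ replicates 1 to 3 (26.6 ± 7.29%), 7.63, 0 and 0% in DP (2.54%), and 0% in each Pdgfra+ library. Every Oct4+ library was above every DP and every Pdgfra+ library. The exact p was 0.0357 and the adjusted p 0.443. In sorted but pooled cells, a mark in fewer cells and a weaker mark per cell cannot be told apart. Oct4+ lay above Pdgfra+ in this way at 15.9% of 18676 tested genes, and DP lay below Oct4+ at 8.23%, so that 2 of the 5 genes, Nodal and Tdgf1, did so in both comparisons.

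The Nodal start itself was covered by a single H3K27ac peak in each Oct4+ library, reaching from at most 3.62 kb upstream to at most 3.85 kb downstream. By total signal these peaks ranked in the top 1.18, 1.09 and 0.665% of their lists. The DP replicate 1 peak, from 2.51 kb upstream to 1.1 kb downstream, ranked at 61.0% from the top of its list. The further H3K27ac region at 7.33 to 10.6 kb, between the end of Nodal and Eif4ebp2, was listed in 3 Oct4+ and no other libraries.

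H3K4me1 at Nodal was listed in all Oct4+ and DP libraries. It covered 5.38, 15.1 and 11.6% of the window in Oct4+ (10.7 ± 4.92%), 1.92, 15.6 and 6.46% in DP (7.98 ± 6.95%), and 0, 0 and 4.42% in Pdgfra+ (1.47%). Oct4+ and DP overlapped, and Oct4+ was above Pdgfra+ without overlap, as at 10.3% of 13283 genes (exact p = 0.146, adjusted p = 0.747). The position differed, however. A region from 3.65 kb upstream to 0.748 kb downstream had a peak in 3 Oct4+, 2 DP and 0 Pdgfra+ libraries, whereas a region 20.9 to 24.4 kb downstream, inside the body of Eif4ebp2, had one in 0 Oct4+, 3 DP and 1 Pdgfra+ libraries. DP replicate 1 had only the second of these.

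Tdgf1, the co-receptor, had H3K27ac mainly in Oct4+ as well. The mark covered 25.6, 39.8 and 20.7% of the window in Oct4+ (28.7 ± 9.95%), 0, 0 and 8.41% in DP (2.8%), and 0% in each Pdgfra+ library. Every Oct4+ library was again above all others (exact p = 0.0357, adjusted p = 0.443). Oct4+ replicate 3 placed Tdgf1 at the 99.4th and Nodal at the 99.0th percentile of all protein-coding genes for H3K27ac. Its list of 8574 peaks was shorter than those of DP replicates 1 and 3, with 10957 and 12244. It was longer than that of DP replicate 2, with 3079, and those of Pdgfra+, with 4792, 7128 and 4861. Its weakest listed peak had a total signal of 5716, against 13683 to 14586 in the DP lists.

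H3K4me1 at Tdgf1 covered 14.2, 28.5 and 27.4% in Oct4+ (23.4 ± 7.96%), 0, 6.19 and 10.4% in DP (5.52 ± 5.22%), and 0% in each Pdgfra+ library (exact p = 0.0143, adjusted p = 0.639). All Oct4+ libraries were above all DP libraries, which held for 1 of the 5 genes and for 4.28% of the tested genes. With equal numbers of peaks in every list, or with a common minimum of total signal, this no longer held for Tdgf1 or any other of the 5 (4.51 and 0.171% of tested genes).

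Separate blocks made up the signal at Tdgf1. The block at the start, from 3.65 kb upstream to 3.12 kb downstream for H3K27ac, was listed in 3 Oct4+, 0 DP and 0 Pdgfra+ libraries. The block 4.28 to 11.5 kb upstream was listed in 3, 1 and 0 libraries for H3K27ac and in 3, 2 and 0 for H3K4me1, and it covers the start of Lrrc2. The block 12.6 to 16.6 kb upstream, within Lrrc2, was listed in 3 Oct4+ libraries and in no other for H3K27ac. H3K27ac lay at the Lrrc2 promoter in 3, 1 and 0 libraries, so that the upstream blocks cannot be assigned to either gene. With the bodies and promoters of neighbouring genes taken out of the window, a measure added after the data were seen, H3K27ac at Tdgf1 was 16.3 ± 3.76% in Oct4+ and 0 in all DP and Pdgfra+ libraries, and at Nodal 35.5 ± 7.75% in Oct4+ and 0 in Pdgfra+. H3K4me1 at Tdgf1 was then 9.05 ± 7.85% in Oct4+ and 0 in all DP and Pdgfra+ libraries. The lowest Oct4+ library was also at 0, so the populations no longer separated for H3K4me1.

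**Figure D2:**
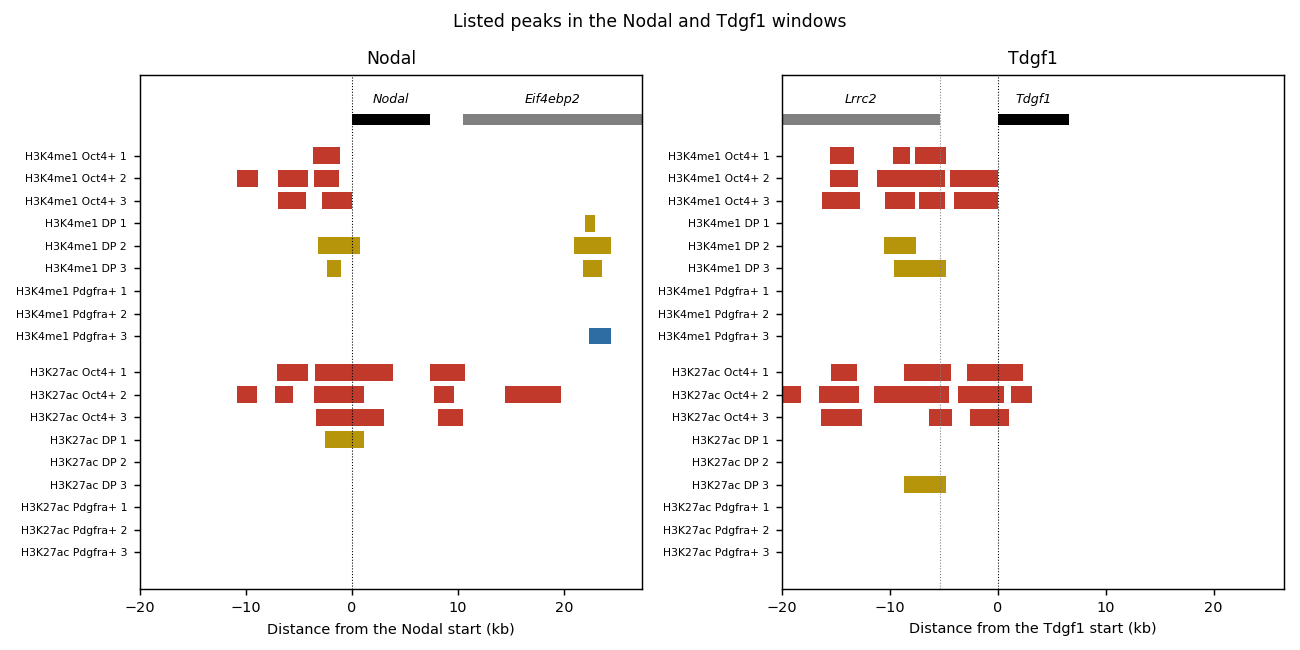
Listed H3K4me1 and H3K27ac peaks in the Nodal and Tdgf1 windows, 1 row per library, against distance from the gene start in kb along the direction of transcription. Red is Oct4+, yellow DP and blue Pdgfra+, with genes as black or grey bars and their starts as dotted lines. The peaks at the Tdgf1 start are all from Oct4+, and the H3K4me1 peaks 20.9 to 24.4 kb past the Nodal start are from 3 DP and 1 Pdgfra+ libraries.

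At the Lefty genes the mark that stood out was H3K4me1, and DP carried the most of it. For Lefty2 it covered 12.4, 31.7 and 23.6% of the window in Oct4+ (22.6 ± 9.7%), 18.5, 79.8 and 45.4% in DP (47.9 ± 30.7%), and 0, 0 and 5.47% in Pdgfra+ (1.82%). DP and Oct4+ overlapped, and both were above Pdgfra+ without overlap (exact p = 0.0464, adjusted p = 0.734). The DP values placed Lefty2 at or above the 99.8th percentile of protein-coding genes within each library, and the Oct4+ values at 97.5 to 99.3.

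For Lefty1, H3K4me1 covered 8.28, 21.8 and 12.4% in Oct4+ (14.1 ± 6.91%), 23.1, 67.2 and 35.7% in DP (42.0 ± 22.7%), and 0, 0 and 19.4% in Pdgfra+ (6.47 ± 11.2%). Every DP library was above every Oct4+ and every Pdgfra+ library (exact p = 0.0214, adjusted p = 0.639). DP lay above Oct4+ at 6.38% of tested genes and at 1 of the 5, Lefty1, and above Pdgfra+ at 5.86% and at both Lefty genes. With equal numbers of peaks, neither held at any of the 5 (6.13 and 5.01% of tested genes). With a common minimum of total signal, DP lay above Oct4+ at 0 of the 5 (1.0%) and above Pdgfra+ at Lefty1 (1.13%). The percentile of Lefty1 was 99.7 to 99.9 in DP and 93.6 to 97.9 in Oct4+. All Pdgfra+ coverage of Lefty1 came from replicate 3, the long list, and without that library the Oct4+ minus Pdgfra+ difference was 14.1 rather than 7.66 percentage points.

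Both Lefty starts lay under H3K4me1 in all Oct4+ and DP libraries, and 1 Pdgfra+ library had a peak at the Lefty1 start. A listed H3K4me1 peak at a promoter in 3 of 3 Oct4+ and 0 of 3 Pdgfra+ libraries was found for Lefty2 among the 5 genes and for 0.529% of all protein-coding genes. These are full lists, and with equal numbers of peaks most H3K4me1 promoter peaks of the 5 genes were lost. In DP replicate 2 a single peak of 21.6 kb ran from 15.6 kb upstream of Lefty2 to 6.04 kb downstream and ranked in the top 1.19% of its list. Another, of 17.8 kb, lay 3.4 to 21.2 kb upstream of Lefty1 and ranked in the top 1.01%. The other DP libraries had several narrower peaks over the same stretches.

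The populations did not separate in this way for H3K27ac. At Lefty2 it covered 12.6, 33.6 and 5.45% in Oct4+ (17.2 ± 14.6%), 32.9, 0 and 8.43% in DP (13.8 ± 17.1%), and 0, 0 and 9.29% in Pdgfra+ (3.1 ± 5.36%), and all 3 populations overlapped (exact p = 0.432, adjusted p = 0.761). At Lefty1 it covered 11.7, 16.7 and 0% in Oct4+, 25.0, 0 and 11.2% in DP, and 0, 4.62 and 0% in Pdgfra+, again with overlap (exact p = 0.379, adjusted p = 0.7).

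The H3K27ac peaks lay in several places. A region 2.18 to 6.38 kb upstream of Lefty2, which holds the Lefty2 sequence printed above, had a peak in 3 Oct4+ libraries and in none of the other 6. The Lefty2 promoter was under H3K27ac in 2 Oct4+, 1 DP and 0 Pdgfra+ libraries, whereas the Lefty1 promoter was under it in none of the 9. At Lefty1, the H3K27ac listed in DP replicate 3 and in Pdgfra+ lay around the start of Tmem63a. With neighbouring genes taken out, H3K27ac at Lefty1 was 11.0 ± 10.1, 8.74 ± 14.0 and 0% in Oct4+, DP and Pdgfra+.

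H3K27me3 was listed at the Lefty genes and at no other of the 5. At Lefty1 it covered 50.2% of the window in Oct4+ replicate 3 and 19.6% in Pdgfra+ replicate 3, and 0% in the other 7 libraries (exact p = 1). At Lefty2 it covered 11.8% in Oct4+ replicate 3 and 8.48 and 11.1% in Pdgfra+ replicates 2 and 3, and 0% in the other 6 (exact p = 0.679, adjusted p = 1). All 3 Lefty2 peaks spanned the start, from 1.83 kb upstream to 3.61 kb downstream at most. None of the DP libraries listed it, although DP replicate 2 had the longest H3K27me3 list, with 8672 peaks. Oct4+ replicate 3 and Pdgfra+ replicate 3 had the longest H3K27me3 lists of their populations, with 5785 and 6151 peaks, and in DP replicate 1, with 3798 peaks, the weakest listed peak had a total signal of 52608. Of the 5 genes, 0 separated Oct4+ above Pdgfra+ for this mark, against 3.32% of 9814 tested genes.

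The coding parts of Lefty1 and Lefty2 are close copies of each other, and how reads that match both were placed is not given in the sources used here. Peaks over the gene bodies are therefore less certain than those upstream. Across the 36 libraries of all marks, the percentiles of the 2 genes correlated more than those of any other pair (Spearman rho = 0.766, as a description). Their windows share 4 peaks, and the points share marks and list lengths.

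**Figure D3:**
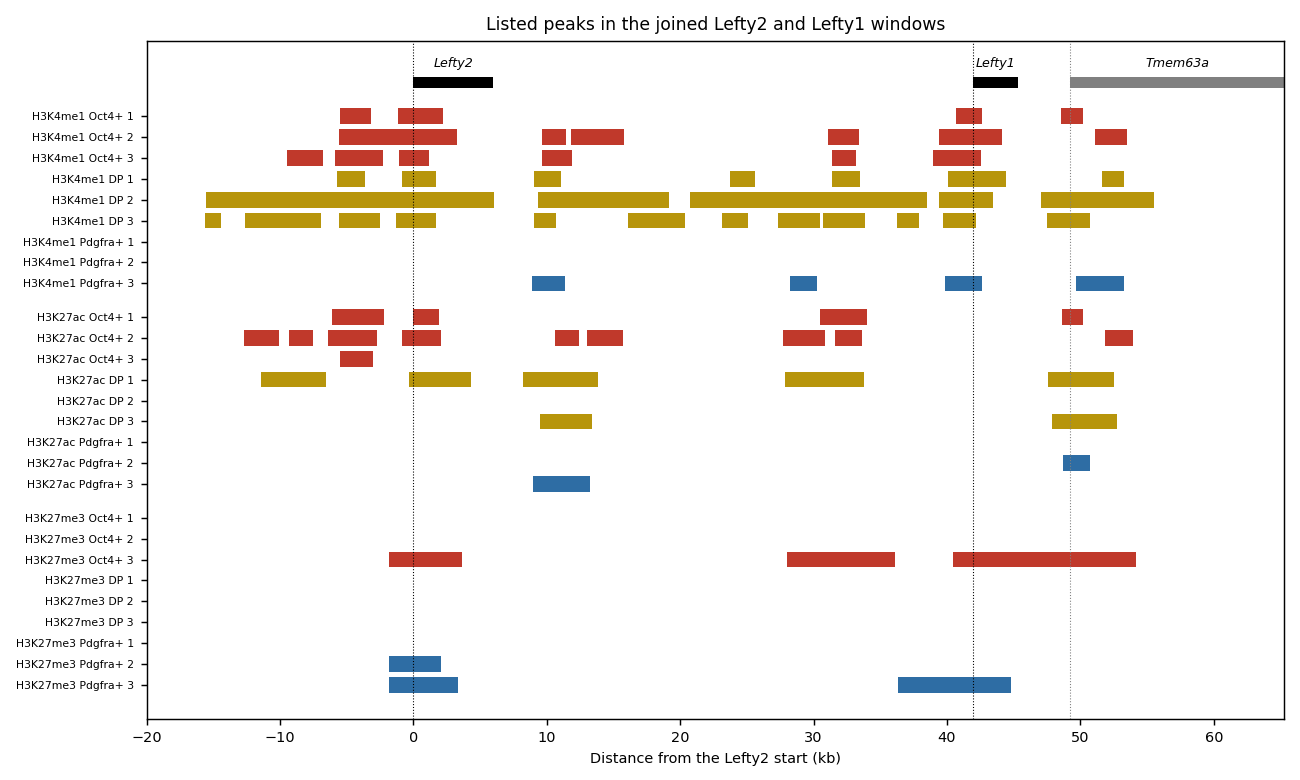
Listed H3K4me1, H3K27ac and H3K27me3 peaks from 20 kb before Lefty2 to 20 kb past Lefty1, 1 row per library, against distance from the Lefty2 start in kb. Red is Oct4+, yellow DP and blue Pdgfra+, and dotted lines are the starts of Lefty2, Lefty1 and Tmem63a. H3K4me1 covers 18.5 to 79.8% of the Lefty2 window in DP, H3K27ac at the Lefty1 start is in none of the 9 libraries, and H3K27me3 is in 1 Oct4+ and 2 Pdgfra+ libraries and no DP library.

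Smad7, the intracellular inhibitor, carried H3K27ac in every library. The gene is at chr18:75367529-75395935 on the plus strand, and Gm20544, a non-coding transcript, starts 0.441 kb upstream on the other strand, so that marks at this start cannot be assigned to either. H3K27ac covered 13.4, 26.3 and 3.82% of the window in Oct4+ (14.5 ± 11.3%), 42.0, 7.8 and 38.0% in DP (29.3 ± 18.7%), and 27.3, 19.0 and 29.8% in Pdgfra+ (25.4 ± 5.63%). The populations overlapped (exact p = 0.396, adjusted p = 0.723). The promoter had H3K27ac in all 9 libraries, as at 6.42% of protein-coding genes, and Smad7 was the 1 gene of the 5 to do so. By contrast, Nodal and Tdgf1 were 2 of the 5 with H3K27ac at the promoter in 3 of 3 Oct4+ and 0 of 3 Pdgfra+ libraries, as at 2.59% of genes, and for Tdgf1 it was in no DP library either.

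Within the libraries, the H3K27ac percentile of Smad7 was 98.4 to 98.8 in Pdgfra+, 93.4 to 99.3 in DP and 77.2 to 83.8 in Oct4+. The share of all genes that separate on the percentile scale was not counted, and the covered percentages of Smad7 overlapped between populations. The promoter peak in Oct4+ was 1.02 to 5.42 kb wide. In DP replicates 1 and 3 a single peak of 24.0 and 26.0 kb ran from the promoter through most of the gene and ranked in the top 0.11 and 0.098% of its list. In Pdgfra+ replicates 1 and 3 the peaks at the start were 7.65 and 13.4 kb wide, with others further into the gene up to 21.4 kb.

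H3K4me1 at Smad7 lay mostly inside and past the gene. It covered 0, 37.9 and 23.7% in Oct4+ (20.5 ± 19.1%), 7.9, 43.7 and 30.3% in DP (27.3 ± 18.1%), and 2.3, 2.54 and 36.6% in Pdgfra+ (13.8 ± 19.8%), with overlap (exact p = 0.65, adjusted p = 1). A region 4.38 to 31.9 kb downstream of the start was listed in 2, 3 and 3 libraries, and the promoter in 1 DP library. The spread within each population exceeded the differences between them.

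H3K9me3 was scarce at all 5 genes. At Smad7 a region 44.2 to 47.3 kb downstream of the start, past the end of the gene, was listed in 2 libraries of each population, and the coverage was 1.92 ± 1.67, 2.85 ± 3.09 and 2.16 ± 1.87% (exact p = 0.914). Nodal had a peak in Oct4+ replicate 2 and in DP replicate 2 15.3 to 17.4 kb upstream, the Lefty genes shared 1 peak in Pdgfra+ replicate 1, and Tdgf1 had none. No promoter of the 5 genes held H3K9me3 in any library, and H3K27me3 was listed at none of Nodal, Tdgf1 and Smad7.

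**Figure D4:**
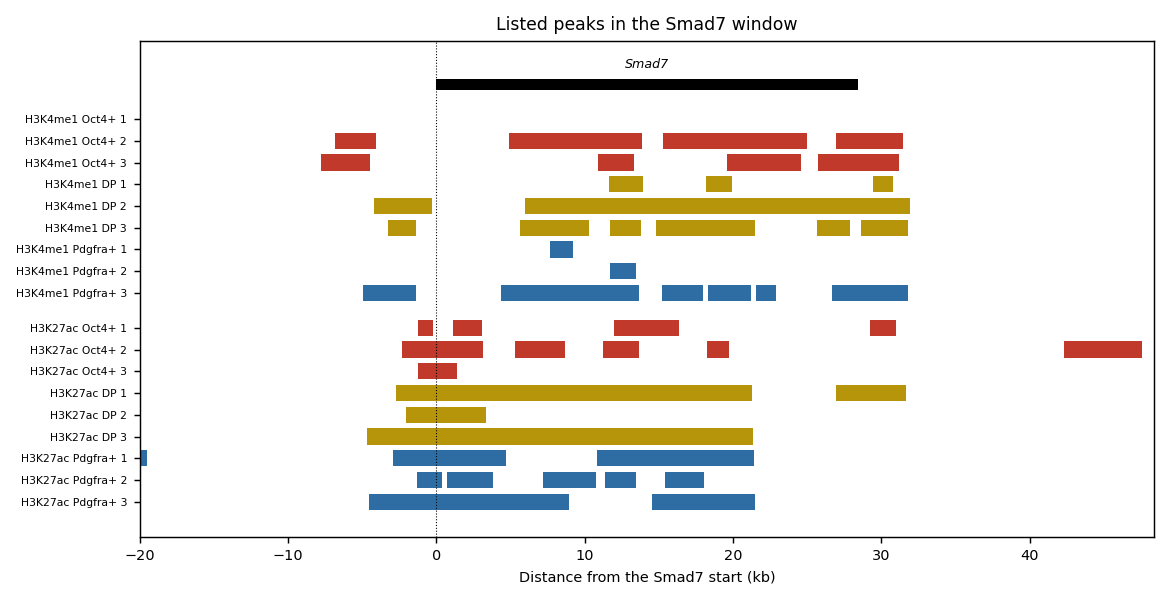
Listed H3K4me1 and H3K27ac peaks in the Smad7 window, 1 row per library, against distance from the Smad7 start in kb. Red is Oct4+, yellow DP and blue Pdgfra+, and the dotted line is the start. All 9 H3K27ac rows hold a promoter peak, and DP replicates 1 and 3 hold single peaks of 24.0 and 26.0 kb.

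The comparison was repeated with each list cut to its top peaks by total signal, so that every library of a mark had the same number. For H3K27ac, Nodal and Tdgf1 still lay above Pdgfra+ in every Oct4+ library, as at 6.34% of 9043 genes with a peak, and above every DP library, as at 6.07%. The mean difference from Pdgfra+ was 13.0 points rather than 26.6 at Nodal and 17.1 rather than 28.7 at Tdgf1. For H3K4me1, 1 of the 3 genes that separated in the full lists did so, Lefty2, against 7.57% of 4370 genes. With a common minimum of total signal in place of a common number, Oct4+ lay above Pdgfra+ for H3K27ac at Nodal alone, against 0.44% of 9091 genes, and for H3K4me1 at none of the 5, against 0.929% of 10549. For H3K27ac, DP then lay below Oct4+ at Nodal (0.484% of genes) and above Oct4+ at Smad7 (3.29%).

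The rest of the pathway was read from a list of 35 genes in 6 roles. For H3K4me1, Oct4+ lay above Pdgfra+ without overlap at 6 of the 27 genes with a peak and below at 0, against 10.3 and 0.67% of all tested genes. The 6 were 3 of 5 ligand and processing genes, 1 of 4 receptor genes, 2 of 5 target genes and none of the inhibitors or effectors. They included Acvr2b, a receptor, at 8.31 ± 4.77% in Oct4+ and 0% in DP and Pdgfra+, and Gdf3, a ligand, at 9.96 ± 2.44, 18.1 ± 17.2 and 0%. They also included the mesendoderm factors Eomes, at 19.8 ± 15.4, 16.1 ± 7.22 and 1.38 ± 2.4%, and Gsc, at 11.6 ± 9.87, 0 and 0%. Both also held H3K27me3. It covered 7.81 ± 8.09, 8.14 ± 7.1 and 3.75 ± 6.5% at Eomes. At Gsc it covered 19.5 ± 24.9, 72.7 ± 26.3 and 22.8 ± 29.8%. H3K27ac at Eomes was 0, 9.41 ± 4.94 and 0.745 ± 1.29%. An H3K27me3 promoter peak was listed at a mean of 77.8, 88.9 and 38.9% of the 6 target genes in Oct4+, DP and Pdgfra+. The same means over all protein-coding genes were 9.79, 14.6 and 6.82%.

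For H3K27ac, Oct4+ lay above Pdgfra+ at 6 of 32 pathway genes with a peak, a share close to the 15.9% of all tested genes. Gdf3 was at 13.3 ± 10.5% in Oct4+ and 0% in DP and Pdgfra+, and Pcsk6, a protease that cuts the Nodal precursor, was at 13.1 ± 6.43, 2.43 ± 3.08 and 0%. Acvr2b was at 14.6 ± 10.4, 3.37 ± 3.62 and 0%, and Bambi, a decoy receptor, was at 8.02 ± 0.0595, 1.45 ± 2.5 and 0%. With equal numbers of peaks, 2 of 24 genes were above, Gdf3 and Pcsk6, and 2 below, Pmepa1 and Skil, against 6.34 and 14.2% of tested genes. Oct4+ lay below Pdgfra+ for H3K27ac at 0 of the 5 genes, both in the full lists and with equal numbers of peaks. None of these genes passed the adjusted threshold.

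The genes whose percentiles followed each of the 5 most closely over the 36 libraries, at least 1 Mb away, were named as a description. These were Gsta3, Gins1 and Plpp3 for Nodal (Spearman rho 0.852, 0.842 and 0.834), and Ing4, Cfdp1 and Derl3 for Tdgf1 (0.954, 0.925 and 0.901). For Lefty2 they were Slc39a4, Vps28 and Brd1 (0.839, 0.832 and 0.822), for Lefty1 Mroh1, Pmvk and Bag5 (0.784, 0.778 and 0.769), and for Smad7 Arntl, Lpcat3 and Afmid (0.846, 0.845 and 0.84). The points share marks and list lengths, and genes without a peak in a library all have 1 value there. Among the 5 genes, Nodal and Tdgf1 had a rho of 0.632, Nodal and Lefty2 0.579, and Tdgf1 and Smad7 0.131, the lowest of the 10 pairs.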

How the data were processed

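CUT&Tag peak lists of 36 libraries were used, and the 3 IgG samples were not used here. The authors called peaks per library against IgG with SEACR in stringent mode from BEDtools coverage, and the deposited lists give total and maximum signal per peak in whole numbers. The submitters' processing notes name mm10, bcl2fastq 2.19.1, Bowtie2, SAMtools 1.12, deepTools, SEACR and bedtools 2.26.0. Whether SEACR's normalization was on, and the depth, are not given in the sources used here, so signal was ranked only within a list, except in the common-minimum alternative.

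Genes were taken from GENCODE vM21 and sequences from GRCm38.p6. Windows were the gene body plus 20 kb, and promoters ran from 1 kb before to 100 bp after the start. The covered percentage of each window was compared by exact permutation, with Benjamini-Hochberg adjustment over all protein-coding genes with a peak and a threshold of 0.05. A pair of groups separated, or did not overlap, when every library of one exceeded every library of the other. The analysis used NumPy 2.4.6 and pandas 2.3.3 under Python 3.11.15, with plots from Matplotlib 3.10.9, and was tested on simulated data.

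The genes, pathway and marker lists were chosen with earlier results of these data known. The 5 genes and neighbours starting in their windows were named, with up to 4 pathway genes per mark in alphabetical order among those that separated, and the 3 genes most similar to each member. Pmepa1, Skil, Eif4ebp2 and the marker genes were named outside that rule, after their values were seen. The H3K27me3 values of Eomes, Gsc and the target genes, and H3K27ac at Eomes, were also added after the data were seen. Some genes that the rule covers are not reported here.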

Additional observations from a re-analysis of the deposited data

How the results depend on the processing

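Differences in covered percentage between Oct4+ and Pdgfra+ were recomputed for 16 combinations of gene and mark. Over 114 recalculations with another list length, threshold, flank, overlap or block, 4 differences changed sign, and over 142 with 1 library left out, 5 did. None passed the adjusted threshold, and the lowest adjusted p was 0.0883. The cause of the changes was not tested. The Smad7 H3K4me1 difference became -17.8 percentile points on the percentile scale. Lefty2 H3K27ac became -3.1 percentage points with a common minimum of total signal, Lefty2 H3K27me3 became 3.05 with 50 kb either side, and Smad7 H3K9me3 became 0.929 with only the stronger peaks, those at or above the median total signal of each list. With 1 library left out, Smad7 H3K4me1 ranged from -1.96 (without Oct4+ replicate 2) to 18.1, and Lefty1 H3K27me3 from -6.52 (without Oct4+ replicate 3) to 18.6. Smad7 H3K9me3 ranged from -1.32 to 0.723, and was positive without Oct4+ replicate 2 (0.723), Pdgfra+ replicate 1 (0.281) or Pdgfra+ replicate 3 (0.324). The H3K27ac difference then stayed within 23.6 to 30.7 points at Nodal and 23.1 to 32.7 at Tdgf1. List length and flank moved it more. At Nodal it was 13.0 with equal numbers of peaks or a common minimum, 14.3 with 50 kb and 51.8 with 5 kb either side, and at Tdgf1 17.1 with equal numbers and 13.0 with 50 kb. Over the same settings the H3K4me1 difference ranged from 1.79 to 17.8 at Nodal, 4.49 to 17.8 at Tdgf1, 10.1 to 39.7 at Lefty2 and 1.5 to 21.2 at Lefty1. No H3K27ac peak was left at Tdgf1 with a common minimum, or at Lefty1 with equal numbers.

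The number of the 5 genes separating Oct4+ above Pdgfra+ fell from 3 to 1 with equal numbers of peaks and to 0 with a common minimum for H3K4me1, and from 2 to 1 with a common minimum for H3K27ac. Promoter peaks, counted over 45 pairs of gene and library, fell to 4 and 10 for H3K4me1 and to 1 and 1 for H3K27me3 under the 2 alternatives, and to 8 for H3K27ac with a common minimum. Without the bodies and promoters of neighbouring genes, chosen after seeing the data, the difference was 16.6 points for H3K4me1 and 35.5 for H3K27ac at Nodal, and 9.05 and 16.3 at Tdgf1, and no other moved by over 1 SD. Between libraries of equal replicate number, 3 of 36 correlations of their deviations exceeded 0.1 (range -0.246 to 0.121), and 13 of the pairs correlated best with their own number. With 3 libraries per population and lists of unlike length, these values cannot decide whether equal numbers pair the libraries. With the replicate block the smallest possible exact p was 0.0278, which the adjustment leaves below 0.05 only if most tested genes reach it. That 0 genes passed with the block for any mark is therefore uninformative. The Tdgf1 differences of 23.4 points for H3K4me1 and 28.7 for H3K27ac had an exact p of 0.0556 and 0.111 with the block.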
